A study of Mus musculus with 12 samples.

Results

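The genes described here are 10 regulators of muscle gene transcription: the myogenic bHLH factors Myod1, Myf5, Myf6 and Myog, the satellite-cell factor Pax7, the MADS-box factors Mef2a, Mef2c and Mef2d, the class IIa deacetylase Hdac4 and the runt-domain factor Runx1. Every probe whose gene symbol in the platform annotation matched one of these names was taken, which gave 16 probes of 9 genes among the 45281 probes and 19057 named genes of the array. Mef2a was not analysed here. The arrays compared skeletal muscle of transgenic (TG) mice that overexpress Nur77, a nuclear receptor whose gene is Nr4a1, with that of wild-type (WT) mice, and the sample titles name the muscle as "Gastr". All mice had been fasted overnight. RNA of 12 mice, 6 of each genotype, was pooled from 2 mice at a time into 3 WT and 3 TG pools, and each pool was hybridised to 1 Illumina single-colour array on each of 2 chips, so that the pool is the replicate (n = 3 per genotype). The sources used here do not give the promoter that drives the transgene, the number of transgenic lines, or the strain, age and sex of the mice.

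The myogenic bHLH factors bind E-box sequences as dimers with E proteins and switch on muscle genes. In mouse development Myf5 and Myod1 commit cells to the muscle lineage, Myog drives their terminal differentiation, and Myf6 (MRF4) becomes the predominant member of the family in adult fibres. MEF2 proteins bind an A/T-rich element and act together with the bHLH factors, and Hdac4 is recruited to MEF2 proteins as a repressor. Runx1 and Myog are known to increase in denervated muscle, while Pax7 marks satellite cells, the stem cells of muscle.

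The promoter windows of 3 of these genes are shown first, because E-boxes are the sequence that the bHLH members bind and Myog, Mef2c and Runx1 each have a window that holds them. The sequences are from RefSeq on GRCm38.p6, run 5′ to 3′ on the gene's strand from 250 bases before to 50 bases after an annotated gene start, and carry the letters CANNTG (E-box) or TGTGGT (a RUNX motif, also sought on the opposite strand as ACCACA) in capitals. Windows were found for 7 of the 9 genes.
Myog, chr1:134289754-134290053, plus strand: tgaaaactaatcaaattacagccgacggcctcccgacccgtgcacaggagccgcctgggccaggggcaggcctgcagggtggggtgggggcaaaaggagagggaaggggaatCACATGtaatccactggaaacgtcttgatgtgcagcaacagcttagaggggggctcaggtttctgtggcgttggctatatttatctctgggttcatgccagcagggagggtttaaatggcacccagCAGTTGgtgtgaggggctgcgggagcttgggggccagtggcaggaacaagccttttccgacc
Mef2c, chr13:83503784-83504083, plus strand: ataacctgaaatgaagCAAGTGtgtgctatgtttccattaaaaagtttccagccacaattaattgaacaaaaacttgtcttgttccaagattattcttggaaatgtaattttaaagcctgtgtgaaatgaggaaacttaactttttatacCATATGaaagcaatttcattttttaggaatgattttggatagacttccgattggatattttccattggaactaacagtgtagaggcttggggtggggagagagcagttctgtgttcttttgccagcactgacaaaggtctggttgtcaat
Runx1, chr16:92826025-92826324, minus strand: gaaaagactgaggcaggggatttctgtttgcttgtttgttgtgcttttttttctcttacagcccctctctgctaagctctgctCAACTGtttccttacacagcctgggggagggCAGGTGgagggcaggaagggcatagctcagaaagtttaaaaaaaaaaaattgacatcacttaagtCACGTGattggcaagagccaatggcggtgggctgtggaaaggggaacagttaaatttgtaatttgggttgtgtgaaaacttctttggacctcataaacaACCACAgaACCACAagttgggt
The E-boxes of Myog began 138 and 12 bases before the start, those of this Mef2c window 234 and 100 bases before it, and those of this Runx1 window 167, 136 and 71 bases before it. The RUNX motifs of the Runx1 window lay 28 and 36 bases past the start. Over all windows of these genes, several of which have more than 1 start, an E-box was present in 4 of 10, against 72.3% of the 32851 windows of the same length in the RefSeq table. The RUNX motif was present in 2 of 10 against 16.8%, and AAAGGTCA, the element that Nur77 binds as a monomer, in 0 of 10 against 1.51%, both strands counted. A match is only a match of letters, and no binding was measured.

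Between 17607 and 19118 probes were detected per array. The probe of Nr4a1 was detected on 0 of 12 arrays, with signals from -16.2 to 8.2, so it gives no check of the genotype labels. It cannot be told from the files whether it lies in the part of the transcript that the transgene carries. The tissue given in the labels was checked against 9 myofibre markers, such as Ckm and Acta1, all of which were detected on every array. The WT1 array of chip 2 and the TG3 arrays of both chips stood apart on the second principal component (-28.3, -12.3 and -17.9, the others from -1.06 to 15.7). Those same arrays had the highest summed deposited signals of the 8 leukocyte markers tested of 14 listed, with 13195 for WT1 on chip 2 and 17886 and 14980 for TG3. The other WT arrays read 1174 to 2306 and the other TG arrays 3176 to 4333. The median log2 difference of these 8 markers was 1.14 and 0 of them passed the test with all pools. With WT1 from chip 1 only and TG3 left out, a choice made after seeing the data, Cd52 (1.11), Laptm5 (1.24) and Lyz2 (1.13) passed. These had the smallest p of the list in the main fit. Of the 14, Ptprc, Itgam, Cd3e and Ms4a1 were detected on 0 arrays. Values without WT1 or TG3 are given beside some of the results.

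Of the 16 probes, 10, belonging to 6 genes, were detected on every array of one or both genotypes and were tested with limma on the pool means. P-values were adjusted by Benjamini-Hochberg over all 15708 such probes. All differences below are TG minus WT on the log2 scale and carry their standard error. Adjusted p was below 0.05 for 4 of the 10 probes, all of them higher in TG: the probe of Myf6, 1 of Runx1 and 2 of Mef2c. Over all tested probes 25.8% were called, 11.3% higher and 14.6% lower in TG. In normalised values all 3 TG pools lay above all 3 WT pools for 7 of the 10, against 19.5% of all probes, and below them for 1, against 25.7%. The median difference was 0.32 over the 10 probes and -0.02 over all probes. The 10 probes are not independent, because 4 of them, all among the 7, measure Mef2c in the same pools. These counts cover only what passed the detection filter. Of the 10, 7 were detected on every array, 1 (Runx1) entered through the TG arrays alone and 2 (Mef2d and the second Myog probe) entered through the WT arrays alone. With 1 probe per gene, the brightest, 2 of 6 genes were called (Myf6 and Runx1), against 28.0% of 9131 genes. TG3 was the highest TG pool for 6 of the 10 probes, TG1 for 4 and TG2 for 0.

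**Figure D1:**
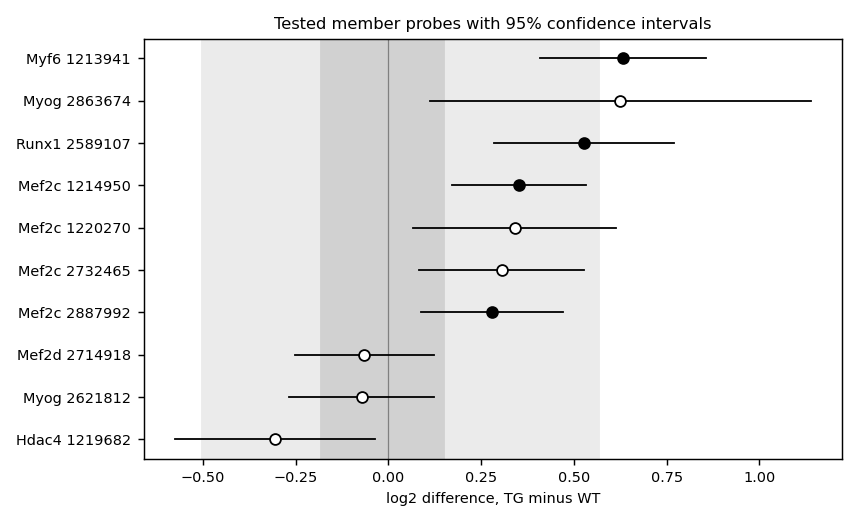
Log2 difference, TG minus WT, of the 10 tested probes, with 95% confidence intervals from limma on 3 WT and 3 TG pool means. Filled points passed an adjusted p of 0.05, and all 4 of them lie to the right of 0. The light band runs from the 5th to the 95th percentile of all tested probes (-0.50 to 0.57) and the dark band from the 25th to the 75th (-0.18 to 0.15).

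Myf6, the bHLH factor of adult fibres, was detected on all 12 arrays and rose in the TG muscle. Its signal was 5450.4, 6394 and 5242 in pools WT1 to WT3 and 8126, 8316 and 9387 in TG1 to TG3. Every TG pool was higher than every WT pool, and the lowest TG pool exceeded the highest WT pool by more than the spread among the WT pools. On the log2 scale the means were 12.44 ± 0.15 in WT and 13.07 ± 0.10 in TG (SD, n = 3 pools), a difference of 0.63 ± 0.10 (95% confidence interval 0.41 to 0.86), or 1.55-fold, with a limma adjusted p of 0.00339. This difference was higher than that of 95.9% of the tested probes. The difference stayed between 0.58 and 0.72 when each pool was left out in turn.

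The 2 chips gave Myf6 unequal sizes. On chip 1 the WT arrays read 4865, 6119 and 5743 and the TG arrays 9911, 9345 and 7799, so the genotypes were separate. On chip 2 they read 6036, 6668 and 4742 in WT against 6341, 7286 and 10976 in TG, and TG1 fell below WT2. The difference was 0.76 on chip 1 and 0.51 on chip 2, where the limma adjusted p was 0.154. The genes whose log2 values followed Myf6 most closely over the 6 pools were Pde10a, a phosphodiesterase (distance 0.11), Gemin5, a subunit of the SMN complex (0.12), and Hpcal1, a neuronal calcium sensor relative (0.14), where the distance is Euclidean between mean-centred log2 values.

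**Figure D2:**
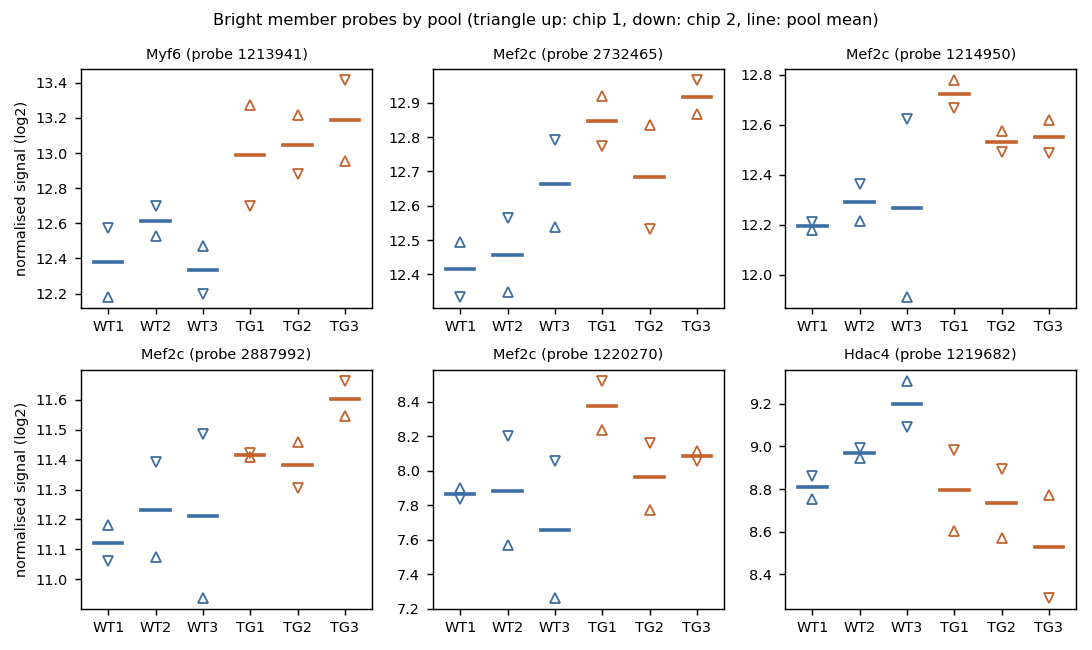
Normalised log2 signal of the 6 member probes of higher signal in each pool (triangles up for chip 1, down for chip 2, lines for pool means, each panel with its own axis that does not start at 0). The TG pool means of Myf6 lie between 12.99 and 13.19, all above the WT pools, while those of Hdac4 lie between 8.53 and 8.79, all below the WT pools, of which the lowest is at 8.81.

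Myog, the differentiation factor, was measured by a pair of tested probes that gave different results, and neither passed the test. The first probe read 74.1, 59.2 and 44.8 in the WT pools and 70.6, 101.5 and 231.7 in the TG pools. TG1 lay below WT1 in signal, although not after normalisation, and TG3 was the highest pool on both chips. The difference of 0.62 ± 0.22 had a limma adjusted p of 0.0732. Without TG3 it was 0.34 with a limma adjusted p of 0.0423, so the size depended in part on that pool. TG3 was also the pool with the most leukocyte marker signal. The part of other cell types in the Myog difference was not tested.

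The second Myog probe read 28.7, 19.3 and 18.6 in WT and 10.1, 22.1 and 24.2 in TG. It was close to the detection limit, found on 6 WT and 4 TG arrays, and the genotypes overlapped. Its difference was -0.07 ± 0.08 with a limma adjusted p of 0.554, and it turned to 0.07 on chip 1 alone.

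Myod1, a commitment factor, was detected on 5 arrays of each genotype and so was not among the tested probes. Its pools read 21.8, 37.0 and 32.4 in WT and 33.0, 49.6 and 140.1 in TG. TG3 was again the highest, and TG1 lay below WT2. The log2 difference was 0.44 with TG3 and 0.15 without it, and an exact permutation test over the 6 pools gave a 2-sided p of 0.2, where the smallest this design allows is 0.1. Myf5, which lies beside Myf6 in the mouse genome with 0 annotated genes between them, was detected on 0 arrays, with pool signals from -13.2 to 0.7. A rise of the Myf6 probe was thus seen beside a neighbour with no detectable signal in either genotype, and the array gives no value for a change in Myf5.

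**Figure D3:**
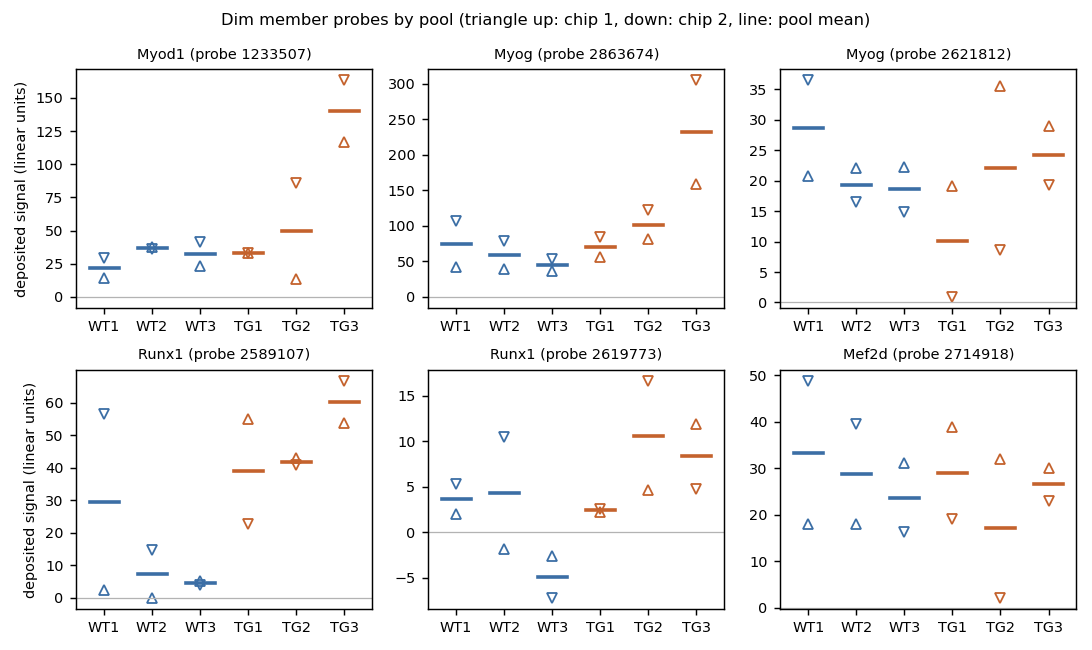
Deposited signal of the 6 member probes of low but detected signal in each pool (triangles up for chip 1, down for chip 2, lines for pool means, each panel with its own axis). TG3 holds the highest pool value for the first Myog probe (231.7), Myod1 (140.1) and the tested Runx1 probe (60.2), and the WT pools of Runx1 lie between 4.6 and 29.5.

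The Pax7 probe was detected on 0 arrays, so the satellite-cell factor itself could not be compared. Of 14 other satellite-cell markers, 9 were tested, 6 rose, 0 fell and 3 did not pass, beside 28.0% of all genes called. Notch3, a receptor that holds satellite cells quiescent in mouse and is also made in vessel walls, rose from signals of 245.0, 216.1 and 236.4 to 332.4, 358.9 and 346.8 (0.54 ± 0.07, limma adjusted p 0.00189). Its TG pools did not overlap the WT pools. Itga7, a laminin-binding integrin of fibres and satellite cells, rose by 0.85 ± 0.15 (limma adjusted p 0.00676) and by 0.65 without TG3. Megf10, a receptor of satellite cells, rose by 0.43 ± 0.09 (limma adjusted p 0.0118), with 1 of its 2 tested probes called. On chip 2 alone Megf10 did not pass (0.50, limma adjusted p 0.0530). Cdh15, the M-cadherin of satellite cells, read 453.2, 435.2 and 493.4 in WT and 276.0, 345.4 and 385.7 in TG (-0.29 ± 0.10, limma adjusted p 0.0660). Calcr, Chrdl2 and Met, more restricted satellite-cell markers, were detected on 0 arrays. In bulk muscle, more cells of a type and more RNA per cell cannot be told apart.

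Mef2c was measured by 4 tested probes, all with positive differences from 0.28 to 0.35, of which 2 passed. The first of these read 4787, 5067 and 5156 in the WT pools and 6571, 5672 and 5815 in the TG pools. The groups did not overlap and TG1 was highest. The difference was 0.35 ± 0.08 (95% confidence interval 0.17 to 0.53), or 1.28-fold, with a limma adjusted p of 0.0150. The second read 2267, 2422 and 2394 in WT and 2584, 2510.2 and 2982 in TG (0.28 ± 0.08, limma adjusted p 0.0419). Again no TG pool fell among the WT pools, with TG3 highest.

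The brightest Mef2c probe, used where 1 probe stands for the gene, missed the threshold. It read 5622, 5751 and 6511 in WT against 7202, 6368 and 7634 in TG (0.30 ± 0.10, limma adjusted p 0.0514), and TG2 lay below WT3. The remaining tested probe, which the annotation ties to a cDNA clone record, read 178.8, 176.4 and 140.7 in WT and 248.5, 175.6 and 213.0 in TG (0.34 ± 0.12, limma adjusted p 0.0685). A further probe was detected on 0 arrays. On chip 1 the 4 probes gave 0.41 to 0.55 and on chip 2 0.15 to 0.22, where none passed. The call of the first probe was lost without WT1 (limma adjusted p 0.0531) and that of the second when any single pool was left out (limma adjusted p 0.0594 to 0.117). With the authors' deposited value table in place of the signals neither passed.

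Mef2d, a MEF2 member of many tissues, read 33.3, 28.7 and 23.6 in WT and 29.0, 17.1 and 26.5 in TG. The signals overlapped, with a difference of -0.07 ± 0.08 (limma adjusted p 0.583). Its probe was detected on 6 WT and 5 TG arrays, and chips 1 and 2 gave 0.15 and -0.29. Hdac4, the repressor that MEF2 proteins recruit, read 413.5, 447.4 and 532.8 in WT and 354.1, 341.1 and 315.3 in TG. Among the tested member probes it was the only one whose TG pools all lay below the WT pools. The difference of -0.31 ± 0.12 (95% confidence interval -0.57 to -0.04) did not pass after adjustment (limma adjusted p 0.0899), although with scaling to the 75th percentile it was -0.40 with a limma adjusted p of 0.0362. Without WT3 it was -0.20 (limma adjusted p 0.245) and without TG3 -0.23 (0.166). A second Hdac4 probe was detected on 0 arrays.

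The relatives of Hdac4 and Mef2c were measured by 3 tested genes of 4 listed, of which 1 rose, beside 28.0% of all genes called. Hdac7, a class IIa deacetylase best known in endothelium and thymus, rose from 155.1, 131.5 and 140.9 to 165.2, 157.0 and 212.0 (0.27 ± 0.08, limma adjusted p 0.0390). Its TG pools lay above the WT pools, but the call was lost without any 1 of WT1, WT2, WT3, TG1 and TG3 (limma adjusted p 0.0633 to 0.137). It was also lost on each chip alone (limma adjusted p 0.389 and 0.0979), with blocks for chip and pool (0.0746), with the pool number as a replicate block (0.0631), with scaling to the 75th percentile (0.0668) and with the authors' deposited table (0.0776). Hdac5, the class IIa deacetylase closest to Hdac4, read 2001, 2051 and 2156 in WT and 1760.0, 1660 and 1807 in TG (-0.13 ± 0.07, limma adjusted p 0.227). All its TG pools lay below the WT pools without passing the test. Mef2b differed by 0.06 ± 0.10 (limma adjusted p 0.678), a value that took the opposite sign with scaling to the 75th percentile (-0.01).

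Of 12 genes tested from a list of known MEF2 targets, 2 rose, 1 fell and 9 did not pass. The called share of this list, 3 of 12, can be read against the 28.0% of all genes that were called. The median difference was 0.10, against -0.02 over all genes. Ldb3, a Z-disc protein, rose from 8881, 9334 and 9349 to 12613, 12453 and 13392 (0.50 ± 0.07, limma adjusted p 0.00234), with 3 of its 4 probes called. Slc2a4, the insulin-responsive glucose transporter, rose by 0.37 ± 0.09 (limma adjusted p 0.0211) and Srpk3, a muscle kinase known as a MEF2C target in mouse, fell by 0.38 on the log2 scale (SE 0.11, limma adjusted p 0.0364). Slc2a4 and Srpk3 each lost the call without any 1 of WT1, WT2, WT3, TG1 and TG2 (limma adjusted p 0.0528 to 0.117). Both also lost it on chip 2 alone (limma adjusted p 0.170 and 0.274) and without background correction (0.0517 and 0.0725). Slc2a4 further lost it with scaling to the 75th percentile (0.0736) and the authors' deposited table (0.193), and Srpk3 with cyclic loess (0.0528).

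Runx1 had the clearest contrast of detection among the members: its probe was detected on 1 of 6 WT arrays and 6 of 6 TG arrays. The pool signals were 29.5, 7.3 and 4.6 in WT and 39.0, 41.9 and 60.2 in TG. The groups did not overlap, and WT1 stood above the other WT pools. The fitted difference was 0.53 ± 0.11 (95% confidence interval 0.28 to 0.77), with a limma adjusted p of 0.0102. Because 5 of the 6 WT arrays were not above background, the size of the difference is not well fixed. The probe passed the filter only through the TG arrays, so a probe at the WT level in both genotypes would have been left out. The background correction compresses differences at such low signals, and without it the difference was 1.68. With the authors' deposited table it was 2.95. Without WT1 it was 0.63 and without TG3 0.47, and it passed in both cases.

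The detected WT array was WT1 on chip 2, the WT array with the most leukocyte marker signal. On chip 1 the WT arrays read 2.4, 0.0 and 5.1 and the TG arrays 55.1, 43.0 and 53.8, giving a difference of 0.73 with a limma adjusted p of 0.000815. On chip 2 WT1 read 56.5, WT2 14.6 and WT3 4.1, while TG1 to TG3 read 22.8, 40.8 and 66.6, which overlapped (0.33, limma adjusted p 0.345). Runx1 is expressed in blood cells as well as in muscle. Without the TG3 arrays and the chip 2 array of WT1, a choice made after seeing the data, the difference was 0.60 with a limma adjusted p of 0.000547, and the leukocyte marker Lyz2 also passed, at 1.13 (limma adjusted p 1.409e-05). The part of leukocytes in the Runx1 value was not tested. A second Runx1 probe was detected on 0 WT arrays and 1 TG array.

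**Figure D4:**
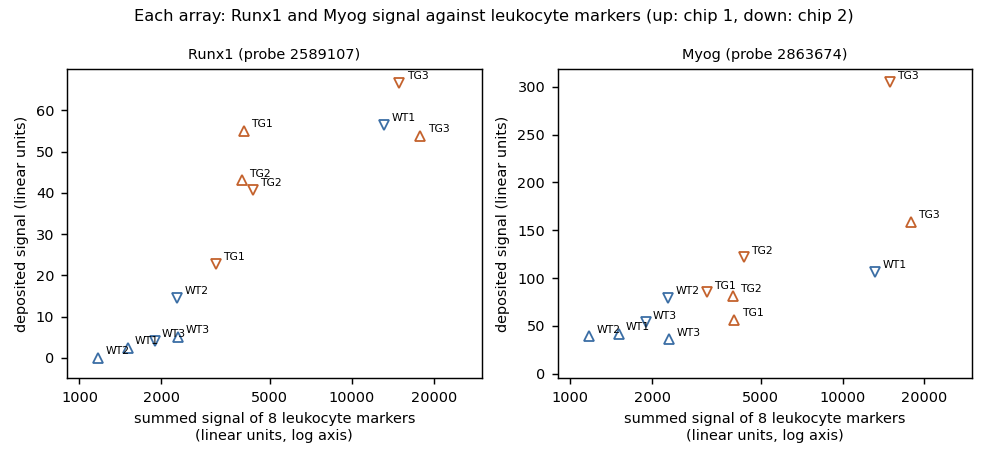
Runx1 and Myog signals per array against the summed signal of the 8 tested leukocyte markers (log axis; triangles up for chip 1, down for chip 2). The WT1 array of chip 2 and both TG3 arrays lie far to the right, and the chip 1 TG1 and TG2 arrays show Runx1 at 55.1 and 43.0 with marker sums of 4007 and 3955. The chip 1 WT1 to WT3 arrays show Runx1 at 2.4, 0.0 and 5.1 with marker sums of 1504, 1174 and 2306.

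Cbfb, the partner subunit through which RUNX proteins bind DNA firmly, changed in the opposite direction. It read 7474, 7348 and 7438 in the WT pools and 2365, 2396 and 2210.3 in the TG pools. The pools of each genotype lay close together and far from the other genotype. The difference was -1.57 ± 0.07 with a limma adjusted p of 1.443e-05, and all 3 probes of Cbfb were called, at -1.57 to -0.98. Runx1t1, a corepressor known from fusions with RUNX1, differed by 0.18 ± 0.12 (limma adjusted p 0.277), and by 0.30 without TG3 (limma adjusted p 0.0301).

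Among the partners and inhibitors of the bHLH factors, 7 of 9 listed genes were tested, 2 rose, 0 fell and 5 did not pass, beside 28.0% of all genes called. Msc (musculin, MyoR), a bHLH repressor of the MyoD family, read 120.1, 109.8 and 88.9 in WT and 179.6, 149.1 and 162.1 in TG (0.45 ± 0.09, limma adjusted p 0.0114). Its TG pools all lay above the WT pools, but it did not pass on chip 1 alone (0.36, limma adjusted p 0.109). Id2, which sequesters E proteins, read 51.8, 31.7 and 36.3 in WT and 56.8, 59.2 and 108.4 in TG (0.40 ± 0.12, limma adjusted p 0.0426), and its call was lost without any 1 of WT1, WT2, WT3 and TG2 (limma adjusted p 0.0568 to 0.143), on chip 2 alone (0.463) and with the pool number as a replicate block (0.0612). Without TG3 the difference of Id2 was 0.27, and 1 of its 2 tested probes was called with all pools. Tcf4, an E protein, differed by 0.21 ± 0.08 (limma adjusted p 0.0900).

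The other muscle regulators examined, of the Eya, Srf, Tead and sine oculis homeobox families and their partners, were called in both directions: of 8 tested, 2 rose, 2 fell and 4 did not pass. Over all genes 28.0% were called. Tead1, which binds M-CAT elements of muscle genes, read 1917, 1728 and 1884 in WT and 972.5, 945.1 and 1224 in TG (-0.66 ± 0.10, limma adjusted p 0.00284). Tead4, its relative that myogenic bHLH factors activate in mouse myoblasts, read 25.8, 18.7 and 15.6 in WT and 37.0, 42.5 and 74.5 in TG (0.43 ± 0.10, limma adjusted p 0.0188). It was detected on 4 of 6 WT arrays and entered the test through the TG arrays. The Tead4 call was lost without WT2 (limma adjusted p 0.0708) or WT3 (0.0675) and on chip 1 alone (0.105). Srf, the serum response factor, fell by 0.57 on the log2 scale (SE 0.09, limma adjusted p 0.00449), with 1 of its 2 probes called.

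Genes that follow Myog or Runx1 in denervated muscle moved both ways. Of 9 tested of 12 listed, 4 rose, 3 fell and 2 did not pass, beside 28.0% of all genes called. Among acetylcholine receptor subunits, Chrnb1 rose from 2963, 2417 and 2567 to 4407, 4501 and 6148 (0.96 ± 0.13, limma adjusted p 0.00184) and Chrna1 from 990.6, 941.2 and 914.9 to 1481, 1622 and 3203 (1.13 ± 0.24, limma adjusted p 0.0123). TG3 was the highest pool for both, and no TG pool overlapped the WT pools. Chrng, the embryonic subunit, read 50.5, 12.3 and 19.7 in WT and 129.0, 118.8 and 915.2 in TG (1.80 ± 0.56, limma adjusted p 0.0486). Without TG3 the differences were 0.82 for Chrnb1, 0.80 for Chrna1 and 1.02 for Chrng, and all 3 still passed. The Chrng probe was detected on 4 of 6 WT arrays and entered the test through TG. Its call was lost with no detection filter (limma adjusted p 0.0602), on chip 2 alone (0.253) and without WT1, WT2 or WT3 (0.0986 to 0.144). Chrne, the adult subunit, read 261.7, 252.1 and 330.8 in WT and 313.3, 258.0 and 249.9 in TG (0.05 ± 0.13, limma adjusted p 0.815).

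The growth-arrest gene Gadd45a, which is induced by denervation in mouse, rose by 1.38 ± 0.13 (limma adjusted p 0.000322). The ubiquitin ligases of atrophying muscle fell: the difference was -1.46 ± 0.23 for Fbxo32 (atrogin-1, limma adjusted p 0.00380) and -1.77 ± 0.30 for Trim63 (MuRF1, limma adjusted p 0.00506). Without TG3 the differences were -1.21 for Fbxo32 and -1.46 for Trim63, and both passed. Musk, the kinase that assembles the neuromuscular junction, read 175.1, 136.0 and 90.4 in WT and 47.6, 31.3 and 64.1 in TG (-0.77 ± 0.14, limma adjusted p 0.00754). On chip 2 alone Musk did not pass (-0.52, limma adjusted p 0.1105). Beside these, the summed deposited signal of the 2 tested Schwann cell markers was 1050 to 1320 in the WT pools and 605.1 to 1115 in the TG pools, and 0 of the 2 passed. Their part in the junction genes was not tested.

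**Figure D5:**
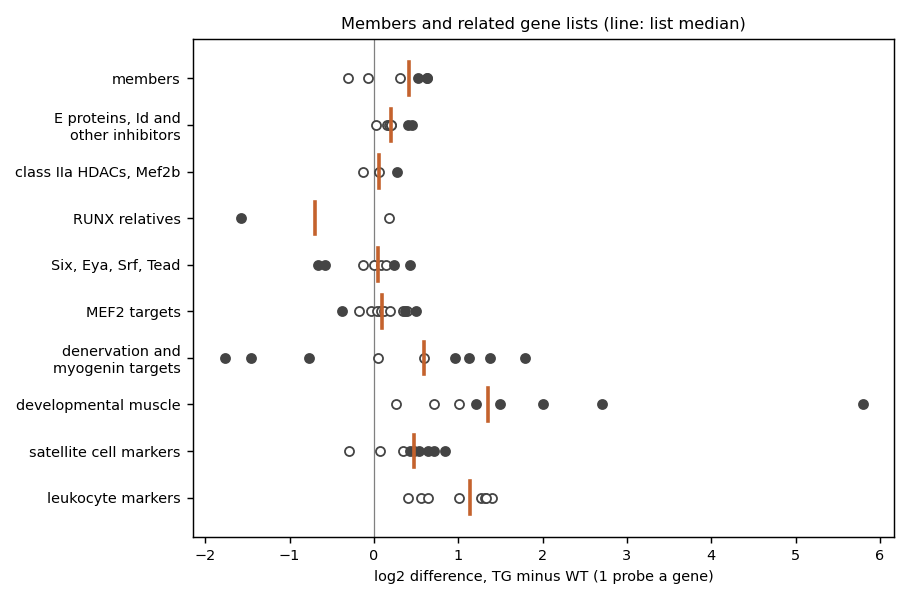
Log2 difference, TG minus WT, of each tested gene in the lists around the members, with 1 probe a gene, genes past an adjusted p of 0.05 filled and the list's median as a line. The denervation list reaches from -1.77 (Trim63) to 1.80 (Chrng), and the developmental list from 0.26 (Peg3) to 5.79 (Myh8).

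Of genes of developing muscle, 8 were tested of 12 listed: 5 rose, 0 fell and 3 did not pass, beside 12.1% of all genes called higher. The list was chosen with earlier results of these data known. The relation of these genes to Myog was not tested. Myh8, the perinatal myosin heavy chain, read 76.2, 80.8 and 115.5 in WT and 4246, 6117 and 22842 in TG (5.79 ± 0.50, limma adjusted p 0.000251). Myl4, the embryonic and atrial myosin light chain, read 1679, 1765 and 1596 in WT and 4332, 4708 and 13914 in TG (2.01 ± 0.37, limma adjusted p 0.00702). For both, every TG pool lay above the WT pools, with TG3 highest. Without TG3 the differences were 5.12 for Myh8 and 1.50 for Myl4, and both passed. Actc1, the cardiac actin of embryonic muscle, rose from 14774, 15878 and 19419 to 40327, 39043 and 40394 (1.21 ± 0.12, limma adjusted p 0.000387), with the 3 TG pools close together. Dlk1, an imprinted regulator of growing muscle, rose by 1.50 ± 0.23 (limma adjusted p 0.00336, 1.20 without TG3) and Igf2, a fetal growth factor, by 2.70 ± 0.14 (limma adjusted p 2.2e-05). The 2 tested probes of Dlk1 were called at 0.63 and 1.50, and the 3 of Myh8 at 3.45 to 5.79.

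Marker signals of cell types in the same pools, summed from deposited signals before normalisation, were as follows. The summed signal of 9 tested myofibre markers was 291713 to 326134 in WT and 340580 to 358170 in TG. Of these markers 2 rose, 1 fell and 6 did not pass, beside 28.0% of all genes called. All of these calls were lost on chip 2 alone (limma adjusted p 0.149 to 0.528) and with the authors' deposited table (0.0655 to 0.585). The falling marker and 1 of the rising ones also lost it without any 1 of WT1, WT2, WT3, TG1 and TG2 (limma adjusted p 0.06225 to 0.122). The summed signal of 6 tested endothelial markers was 2390.4 to 2608 in WT and 2923 to 3025 in TG. Of these markers 3 rose and 0 fell, beside 28.0% of all genes called. Each of the 3 lost the call without any 1 of WT1, WT2, WT3 and TG1 (limma adjusted p 0.0550 to 0.117). Each also lost it with scaling to the 75th percentile (limma adjusted p 0.0651 to 0.113) and with the authors' deposited table (0.124 to 0.233). The 5 fibroblast markers summed to 21526 to 23408 in WT and to 21710, 22590.0 and 28999 in TG1 to TG3, and 0 passed. The 9 satellite-cell markers summed to 2085 to 2647 in WT and 2753 to 3785 in TG, and TG3 was the highest pool of both. In normalised values the median log2 difference was -0.04 for the myofibre, 0.31 for the endothelial, 0.36 for the fibroblast and 0.48 for the satellite-cell markers. The part of these cell types in the values of the members was not tested.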

How the data were processed

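Per the labels, RNA pools of 2 mice (3 WT, 3 TG) were hybridised to 12 single-colour Illumina arrays on 2 chips; the sources used here name no scanner software. Per the file headers, the deposited signals are non-normalized intensity values, but they had been background-subtracted and scaled: the mean was 472.135 on all arrays and 29.3% to 32.8% of values were below 0. The deposited detection p-value column rose with signal and was read as 1 minus p. The values of the authors' deposited table are on the log2 scale. Flooring the signals at 1, taking log2 and subtracting each array's 75th percentile and then each probe's median gave its values to within 0.00109. It rises with the signal, and its column medians were between -0.251 and 0.0935.

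Signals were corrected with normexp (offset 50), quantile-normalised and log2-transformed, and the arrays of a pool averaged. Applied to background-subtracted signals, normexp makes differences of dim probes smaller. Probes detected (p below 0.05) on all 6 arrays of a genotype were tested with limma 3.58.1 in R 4.3.3 (lmFit, eBayes, 2-sided, Benjamini-Hochberg). The fit was tested on simulated data. Symbols came from the platform annotation, which can be old (34885 probes with 1 symbol, 18 with several, not named, and the others without a name here). A list gene was represented by its brightest tested probe. The number of pools, 3 per genotype, limits the precision. The labels do not say how mice were assigned to pools.

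The members and lists were chosen with earlier results of these data known. Named genes are every member, up to 3 genes per list with the smallest p, called developmental and denervation genes, Nr4a1, and the 3 genes closest to Myf6; list members given for detection or as contrasts (Ckm, Acta1, Cdh15, Calcr, Chrdl2, Met, Chrne, Peg3, Mymk, Ptprc, Itgam, Cd3e, Ms4a1) were chosen after their values were seen. Alternatives changed the background correction (none, with signals floored at 10), the normalisation (cyclic loess or 75th percentile scaling), the source (the authors' table), the filter (none, or p below 0.01 on every array), the chips (each alone, or as a block with pools as random, statmod 1.5.0), the pool number (as a replicate block) and the pools (each left out).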

Additional observations from a re-analysis of the deposited data

How the results depend on the processing

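Precision is limited by 3 pools per genotype and, for Myog, Myod1, Mef2d and Runx1, by signals near the detection limit. The number of probes called was 4059 (1771 higher, 2288 lower), 1454 (720 and 734) on chip 2 alone, and 2060 to 4216 (975 to 2034 higher, 1085 to 2182 lower) with 1 pool left out, where it was 2586 without WT1, 2060 without WT2 and 2581 without WT3. Higher calls were 43.6% of all calls, 33.5% with scaling to the 75th percentile and 51.1% with cyclic loess. Of the tested member probes, 4 were called, 2 with the authors' table, 0 on chip 2 alone with limma (2 at an unadjusted p below 0.05) and 2 to 4 with 1 pool left out (2 without WT1). The causes were not tested.

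On chip 2 alone Myf6 (0.51), Runx1 (0.33) and both called Mef2c probes (0.15 each) did not pass. The first Mef2c probe also did not pass with scaling to the 75th percentile (0.28) or the authors' table (0.30), and gave 0.29 to 0.39 with 1 pool left out. The second did not pass without background correction (0.29), with scaling to the 75th percentile (0.20), the authors' table (0.22), chip as a block with pool as a random block (0.28) or WT1 from chip 1 only and TG3 left out (0.19), and gave 0.21 to 0.32 with 1 pool left out. Values that newly passed were those of Myog's first probe on chip 1 (0.56), with chip and pool as blocks (0.62), without TG1 or TG3 and with WT1 from chip 1 only and TG3 left out (0.44), of the brightest Mef2c probe with the stricter detection filter (0.30), on chip 1 (0.42), with chip and pool as blocks (0.30) and without WT3 or TG2, of the clone-record Mef2c probe with cyclic loess (0.39), and of Hdac4 with scaling to the 75th percentile (-0.40). Over the 6 pools left out in turn, these probes gave 0.34 to 0.84 (Myog) and 0.25 to 0.38 (Mef2c), and leaving out any single one of the other 4 pools did not make either pass. The setting with WT1 from chip 1 only and TG3 left out was chosen after seeing the data. Signs reversed on chip 1 for the second Myog probe (0.067) and Mef2d (0.15), for Mef2b with scaling to the 75th percentile (-0.010), the authors' table (-0.0013), on chip 1 (-0.070) and without TG1 (-0.018 to 0.13 over the pools left out), and for Mag without background correction (-0.0058), without WT1 (-0.039) and without TG2 (-0.10 to 0.11 over the pools left out). The values of the other named genes and of the untested member probes under the alternatives were counted together. Of these, 689 stayed the same, 99 lost the call, 25 gained it, 7 changed sign and 3 moved. For a tested probe, staying the same means keeping its direction and side of the threshold. For an untested member probe it means a change smaller than the larger of the WT and TG pool SDs, whatever the sign. A larger change of such a probe counts as moved.

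Pools that share a number had correlations of deviations of -0.417, 0.342 and -0.119. With 3 pools per genotype these values cannot tell whether the numbers pair the pools. With the pool number as a replicate block 3103 probes were called. Among the genes named in the report, the calls of the second Mef2c probe (0.28, limma adjusted p 0.0694), Id2 (0.0612) and Hdac7 (0.0631) were lost.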

Other observations

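Mymk, the myoblast fusion protein that myogenic bHLH factors activate in mouse, was chosen after its values were seen. It was detected on 0 of 6 WT arrays and 6 of 6 TG arrays. Its pool signals were -4.4, -0.6 and 0.1 in WT and 22.1, 22.4 and 224.8 in TG. All TG pools lay above the WT pools, and TG3 stood far above the other TG pools. Set against the higher of the probe's own WT value and the dimmest detected probe on that array, the mean of all 3 TG pools was at least 1.60-fold higher. This bound holds only with TG3 included and was not computed without it. The measured log2 means were 6.02 in WT and 7.03 in TG, with a limma adjusted p of 0.0919. The fitted log2 difference was 1.01 over all pools and 0.47 without TG3, where the limma adjusted p was 0.00220. The probe entered the test through the TG arrays alone.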
